A study of Danio rerio with 16 samples.

Results

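The genes described here are 10 markers of neural progenitors, the dividing cells of the embryonic nervous system that give rise to neurons and glia: the transcription factor genes sox2, sox3, sox19a and zic1, the Notch receptor genes notch1a and notch3, the Notch effector gene her6, the radial glia genes nes and fabp7a, and the RNA-binding protein gene msi1. They were chosen by symbol, and each symbol stood for exactly 1 of the 32513 entries in the expression table. All 10 passed the filter on low values. RNA of whole zebrafish embryos was sequenced in 16 libraries, 4 in each of 4 groups. Control embryos received no radiation and were collected at 48 or at 120 hours post fertilization (hpf). The other embryos received radiofrequency radiation (RFR, which the labels call 5G) at 3.5 GHz and about 30 dBm between 6 and 48 hpf, and were collected at the same ages, which puts the first collection at the end of the exposure. The labels name no strain, genotype, number of embryos per library or clutch. All p-values therefore describe the spread among these libraries, and that spread may be technical.

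Neural progenitors line the ventricles of the brain and spinal cord and are kept in an undifferentiated, dividing state by the SoxB1 transcription factors. Notch signalling works between neighbouring cells: a Delta ligand on a cell that is becoming a neuron activates a Notch receptor on its neighbour, the receptor's inner part is cut free and enters the nucleus, and Hes and Her repressors made in response hold the neighbour back as a progenitor. In fish, many progenitors of the larval brain have the form of radial glia, which span the wall of the neural tube and express the intermediate filament Nestin and the brain-type fatty acid binding protein.

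Expression was given as FPKM, sequenced fragments corrected for transcript length and library depth, which allows a rough comparison of levels between genes. Transcript models and read mapping can still differ between genes. Orders and ratios of genes below are therefore orders and ratios of FPKM. Depth after filtering ranged from 39603976 reads in the smallest library to 49232542 in the largest, and the rate of mapped reads was 69.4 to 71.8% at 48 hpf and 66.2 to 67.6% at 120 hpf. Markers of neurons, radial glia, dividing cells, vessels and skeletal muscle were all present, as the label of whole embryos implies. Of 135 genes in the accompanying lists 1 was at 0 in any library, the proneural gene atoh1c in control 48 hpf replicate 2. In RNA from whole embryos, fewer cells of a type and less RNA per cell cannot be told apart.

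At 48 hpf the control embryos expressed fabp7a far above the other progenitor genes, at 519 ± 121 FPKM (SD, n = 4). Next came sox3 at 86.9 ± 13.3 and sox19a at 57.7 ± 8.67 FPKM, and the ranges of these 3 genes did not overlap. A middle group followed whose neighbours in the order overlapped: notch3, sox2, her6, notch1a, zic1 and msi1, with means from 38.9 down to 29.7 FPKM. The lowest was nes at 17.6 ± 2.91 FPKM, below the range of msi1. By 120 hpf the order in controls had changed. fabp7a was still highest at 222 ± 25.8 FPKM, but it was followed by her6, zic1 and sox2, with means of 29.2, 26.8 and 24.6 FPKM and overlapping neighbours. sox3 stood below them at 19.4 ± 1.43 FPKM, then sox19a, notch3 and msi1 with overlapping ranges and means of 11.3, 9.62 and 9.57. At the bottom were notch1a at 5.95 ± 0.778 and nes at 3.38 ± 0.910 FPKM, each apart from its neighbour above.

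**Figure D1:**
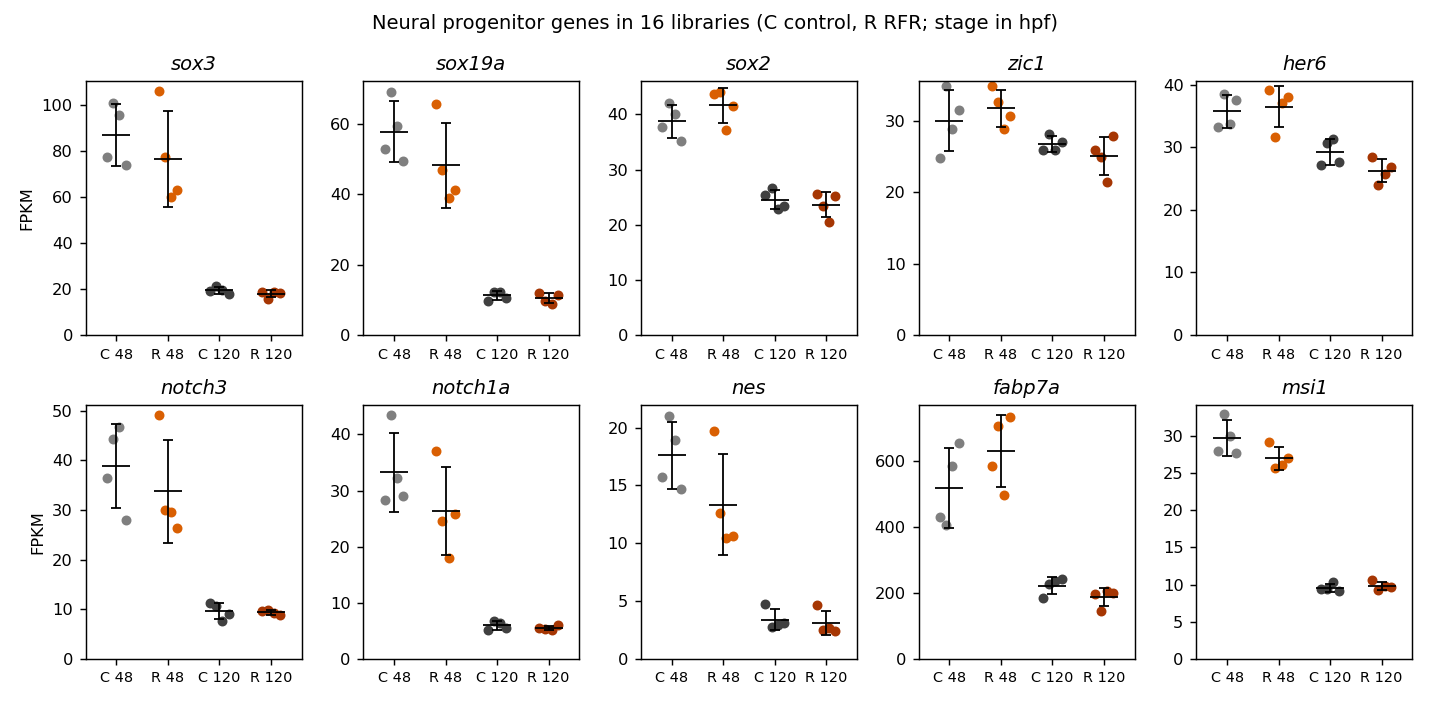
FPKM (linear axis from 0) of the 10 progenitor genes in each of the 16 libraries, as points in 4 groups of 4 (C control, R RFR, stage in hpf), with the group mean and SD as bars. Groups of different stage lie apart for most genes, whereas within a stage the RFR and control libraries overlap for all 10 genes.

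The progenitor genes fell between 48 and 120 hpf in unexposed embryos. limma called 9 of the 10 lower at 120 hpf at an adjusted p under 0.05, where it called 27.9% of all 23026 tested genes lower, 38.3% higher and 66.1% in either direction. The median log2 fold change of the 10 genes was -1.77, on the log2(FPKM + 0.5) scale used throughout, against 0.12 for all genes. The same 9 genes had every 120 hpf control library below every 48 hpf control library, a pattern shown by 25.1% of all genes. The split of all called genes depended on the scaling: 8811 were called higher and 6416 lower as deposited, 6336 and 8906 after quantile normalization, and 7873 and 7486 after median-ratio scaling. Quantile normalization moved the median of all genes from 0.12 to -0.14, while the median of the progenitor genes was -1.77 after it and -1.89 after median-ratio scaling, with all 10 fold changes negative under both.

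Among the SoxB1 factors, sox3 and sox19a fell steeply and sox2 much less. sox3, needed with its relatives for early neural fate, was at 77.5, 101.02, 95.4 and 73.8 FPKM in control replicates 1 to 4 at 48 hpf and at 19.1, 21.3, 19.4 and 17.9 FPKM at 120 hpf. This is a 4.48-fold difference of means and a log2 fold change of -2.12 ± 0.148 (SE; limma adjusted p = 2.582e-09). sox19a, another SoxB1 member, stood at 53.0, 69.2, 59.4 and 49.4 FPKM at 48 hpf and at 9.82, 12.4, 12.3 and 10.6 FPKM at 120 hpf. Both genes were several times lower in every older library, and the change of sox19a was -2.30 ± 0.150 (limma adjusted p = 1.179e-09). sox2, the SoxB1 factor most widely kept in neural stem cells, was at 37.7, 42.1, 40.0 and 35.1 FPKM at 48 hpf and at 25.4, 26.7, 22.8 and 23.4 FPKM at 120 hpf. Its groups did not overlap either, but the difference of means was 1.58-fold and the log2 fold change -0.65 ± 0.086 (limma adjusted p = 5.453e-06). The order of sox2, sox3 and sox19a in FPKM changed between the stages. The ratio of sox3 to sox2 in a library was 2.06 to 2.40 in controls at 48 hpf and 0.753 to 0.850 at 120 hpf. The ratio of sox19a to sox2 went from 1.41 to 1.64 down to 0.387 to 0.540. At 48 hpf sox2 was thus the lowest of the trio in each control library and at 120 hpf the highest.

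The zinc finger gene zic1, a factor of the dorsal neural tube and cerebellum, was the member with the smallest change. Its control values were 24.8, 34.9, 28.9 and 31.5 FPKM at 48 hpf and 25.9, 28.2, 25.9 and 27.0 FPKM at 120 hpf. The older libraries lay inside the range of the younger ones. The log2 fold change was -0.15, with a 95% confidence interval from -0.37 to 0.058 (limma adjusted p = 0.186). This call rested on scaling and on 1 library: zic1 passed after median-ratio scaling (-0.28, limma adjusted p = 0.0457) and without control 48 hpf replicate 1 (-0.24, limma adjusted p = 0.0371). zic4, which lies next to zic1 in the RefSeq gene order, was at 9.59 ± 0.604 FPKM at 48 hpf and 7.65 ± 0.969 at 120 hpf, so that the ratio of zic1 to zic4 averaged 3.12 and 3.54.

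Both Notch receptor genes fell, and notch1a had the largest change of all 10 members. notch1a was at 28.4, 43.4, 32.2 and 29.0 FPKM in control replicates 1 to 4 at 48 hpf and at 5.16, 6.77, 6.44 and 5.42 FPKM at 120 hpf. The difference of means was 5.59-fold (log2 fold change -2.37 ± 0.174, limma adjusted p = 4.685e-09), and 0.647% of all tested genes had a lower fold change. notch3, the receptor that is also known from mural cells of blood vessels, was at 36.5, 44.3, 46.8 and 27.9 FPKM at 48 hpf and at 11.3, 10.6, 7.64 and 8.98 FPKM at 120 hpf. Its groups did not overlap and its log2 fold change was -1.95 ± 0.182 (limma adjusted p = 9.319e-08). The ratio of notch3 to notch1a was 0.962 to 1.46 at 48 hpf and 1.19 to 2.19 at 120 hpf, with overlapping ranges. Vascular and mural markers were split, with 5 of 9 called higher and 2 lower. Of all genes, 38.3% were called higher and 27.9% lower. The 9 fold changes were positive for 5 and negative for 4, with a median of 0.20 against 0.12 for all genes. The most abundant of the 9, acta2 and tagln, were both among those called higher and do not stand for the list. Smooth muscle actin acta2 went from 4.86 ± 0.943 to 178 ± 8.58 FPKM and tagln, another smooth muscle gene, from 7.39 ± 1.96 to 67.8 ± 6.13, both past the test (limma adjusted p = 1.695e-15 and 2.062e-11). The share of notch3 RNA that comes from vessels was not tested.

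her6, the counterpart of mammalian Hes1 and a target of Notch, changed far less than notch1a and notch3. It was at 33.3, 38.6, 33.8 and 37.5 FPKM in controls at 48 hpf and at 27.2, 30.7, 31.3 and 27.7 FPKM at 120 hpf. All older libraries were below all younger ones, by a log2 fold change of -0.29 ± 0.082 (limma adjusted p = 0.00562). With replicates 1 to 3 only, her6 did not pass (-0.24, limma adjusted p = 0.0672). It moved from the middle of the order at 48 hpf to the place behind fabp7a at 120 hpf.

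The radial glia genes nes and fabp7a both fell, by different amounts. nes, which the table lists as a predicted transcript model, was at 15.8, 21.0, 18.9 and 14.7 FPKM at 48 hpf and at 4.72, 2.73, 2.93 and 3.13 FPKM at 120 hpf. Replicate 1 was the highest of the older libraries, yet all lay far below the younger ones (5.21-fold, log2 fold change -2.24 ± 0.218, limma adjusted p = 1.510e-07). fabp7a was at 429.9, 405, 587 and 655 FPKM at 48 hpf and at 185, 227, 235 and 242 FPKM at 120 hpf. The drop was 2.34-fold (-1.20 ± 0.164, limma adjusted p = 7.199e-06), and the gene stayed the most abundant member by a wide margin in every library. Its paralog fabp7b was at 5.41 ± 0.427 and 4.07 ± 0.844 FPKM.

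msi1, which encodes the Musashi RNA-binding protein that marks neural stem cells in mammals, had the smallest spread relative to its change. It was at 28.1, 33.0, 30.0 and 27.8 FPKM at 48 hpf and at 9.41, 9.36, 10.4 and 9.09 FPKM at 120 hpf. The log2 fold change was -1.58 ± 0.074 (limma adjusted p = 1.741e-11). The related genes msi2a and msi2b moved in the opposite direction: msi2b rose from 8.02 ± 0.643 to 13.99 ± 0.664 FPKM (limma adjusted p = 3.253e-06) and msi2a from 4.03 ± 1.02 to 7.36 ± 0.633 (3.649e-04). The ratio of msi1 to msi2b therefore fell from 3.10 to 4.35 in the younger control libraries to 0.633 to 0.798 in the older ones. The table's msi1 is the gene that RefSeq now names msi1b. Its sister gene msi1a was between 0.25 and 1.19 FPKM in all 16 libraries.

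**Figure D2:**
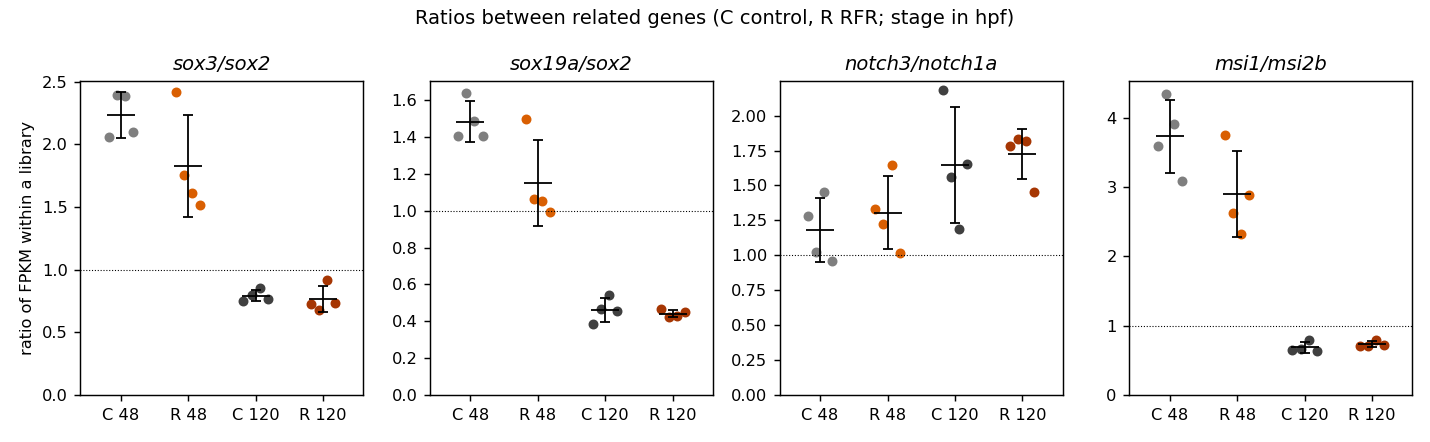
Ratio of FPKM between related genes within each library (points; linear axis from 0, dotted line at 1), with group mean and SD as bars, for controls (C) and RFR (R) at 48 and 120 hpf. sox3 and msi1 exceeded sox2 and msi2b in every library at 48 hpf and were below them in every library at 120 hpf, whereas the ratio of notch3 to notch1a overlapped between the stages.

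Lists of related genes, drawn up with earlier results of these data known, show what moved beside the progenitor genes in controls. The counts below stand beside 27.9% of all tested genes called lower and 38.3% called higher. The median log2 fold change of all genes was 0.12. All 6 other SoxB genes fell (median log2 fold change -0.86), among them the SoxB2 repressor gene sox14 from 16.2 ± 1.97 to 11.5 ± 0.692 FPKM and sox1a from 14.6 ± 0.705 to 10.1 ± 0.591. Of 9 Notch ligand genes 7 fell and 1 rose (median -0.84); the latter, jag2a (0.33), was at -0.21 after quantile normalization. The Delta genes dlb and dla, expressed in cells that are becoming neurons, went from 53.9 ± 4.68 to 4.71 ± 0.689 and from 41.2 ± 6.42 to 5.15 ± 0.448 FPKM (log2 fold changes -3.39 and -2.87, limma adjusted p = 1.147e-11 and 1.178e-10), against -2.37 and -1.95 for the members notch1a and notch3. dlb and dla fell more than the median of the ligand list (-0.84). In the list of other receptors and relay components 9 of 16 fell and 1 rose (median -0.42), with lfng, a glycosyltransferase that modifies Notch, at -1.74 and the receptor-cutting protease adam10b at -0.59. The 1 that rose was its paralog adam10a (0.19, limma adjusted p = 0.0195), which did not pass after median-ratio scaling (0.071, limma adjusted p = 0.423). Of 16 Hes and Hey genes 13 fell and none rose (median -1.54). The 2 most abundant differed: hes6 went from 70.1 ± 7.78 to 12.1 ± 1.05 FPKM, while her9 was at 33.1 ± 3.14 and 35.1 ± 3.93 (limma adjusted p = 0.465), close in level to her6. Values of the near-identical her4 and her15 copies, which are part of this list, are uncertain, since reads can be split among copies and their names differ between annotations.

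In the Zic list 3 of 6 fell and none rose (median -0.24), while zic2a did not pass (log2 fold change 0.13, limma adjusted p = 0.185). Markers of radial glia did not follow nes and fabp7a as a group, with 7 of 16 called higher and 5 lower. Their median was 0.087, against 0.12 for all genes, of which 38.3% were called higher and 27.9% lower. The 2 most abundant of the list were both among those that rose. The glutamate transporter gene slc1a2b went from 96.7 ± 8.90 to 178 ± 11.3 FPKM. The glutamine synthetase gene glula went from 66.7 ± 6.29 to 202 ± 17.7. Other genes of the list went the other way. In embryos after RFR 7 of the 16 were called higher and 6 lower. There sox9b (-1.75), pax6b (-0.97) and pax6a (-0.89) fell, while glula (1.91) and slc1a2b (0.50) rose. In controls, proneural and intermediate progenitor factors fell in 9 of 11 cases and rose in 1 (median -1.86). neurod4 at -2.02 and insm1a at -2.15 were among those that fell. The 1 that rose was atoh1c, a gene at 0 in control 48 hpf replicate 2. All 17 proliferation genes fell (median -1.84); the replication clamp pcna went from 281 ± 37.3 to 78.4 ± 15.04 FPKM and the ribonucleotide reductase subunit rrm2 from 167 ± 10.4 to 20.4 ± 3.72. Of 17 markers of postmitotic neurons 14 rose and 2 fell (median 1.44), with stmn1b, a regulator of microtubules, going from 148 ± 19.96 to 289 ± 20.3 FPKM. elavl3, a marker of young neurons, was among those that fell, from 181 ± 12.7 to 84.0 ± 3.73 FPKM. Skeletal muscle genes were split, 4 of 10 higher and 3 lower (median 0.18); mylpfa, a fast muscle myosin light chain, had a log2 fold change of 0.32 (limma adjusted p = 0.00238) and the actin gene actc1b one of 0.16 (0.0823). Over all 135 listed genes 35 rose and 76 fell, and these counts were 31 and 85 after quantile normalization and 27 and 83 after median-ratio scaling.

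**Figure D3:**
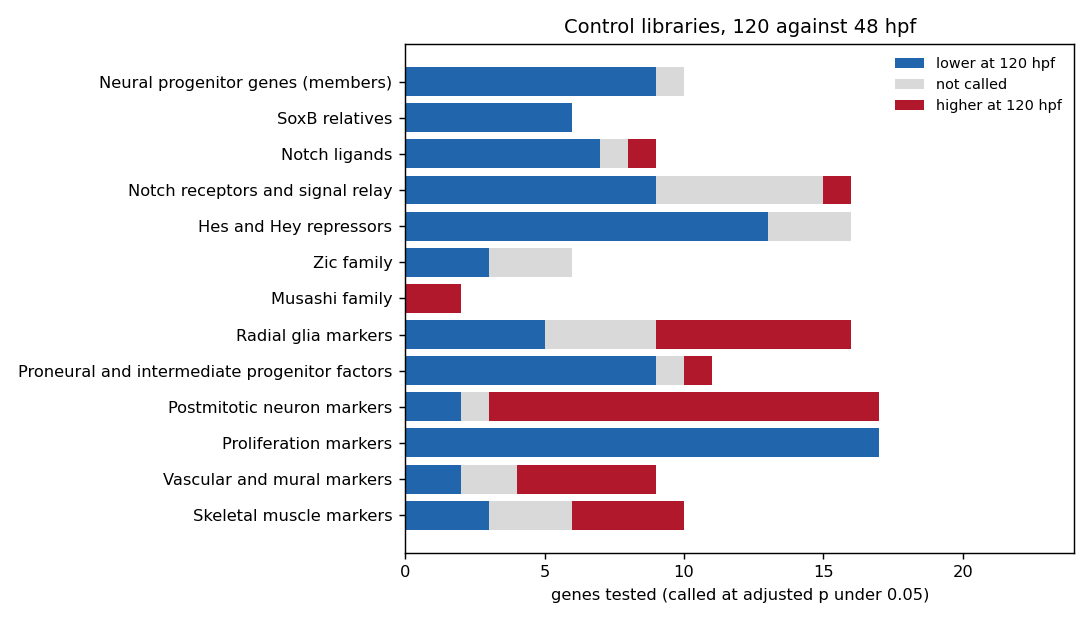
Number of tested genes (horizontal axis) called lower, not called or called higher at 120 against 48 hpf in control libraries (limma adjusted p under 0.05) for the progenitor genes and 12 accompanying lists, as stacked bars. The progenitor, SoxB and proliferation bars hold almost only lower calls, and the neuron bar mostly higher calls, 14 of 17.

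In embryos that had been exposed, all 10 progenitor genes fell between the stages, where limma called 29.2% of all genes lower, 36.1% higher and 65.3% in either direction. All 10 also had every older RFR library below every younger one, against 26.3% of all genes. This comparison shares no library with the one in controls. The median log2 fold change was -1.75, against 0.081 for all genes. The split of all calls was 8305 higher and 6727 lower as deposited, 6312 and 8821 after quantile normalization and 7782 and 7318 after median-ratio scaling. The order of the changes was close to that in controls: sox19a (-2.13), notch1a (-2.13), sox3 (-2.03) and nes (-1.95) fell most, then notch3 and fabp7a (both -1.75), msi1 (-1.41) and sox2 (-0.80), with her6 (-0.47) and zic1 (-0.34) last. zic1 passed the test here (limma adjusted p = 0.0071) and did not in controls, but the difference between the 2 changes did not pass (-0.18, limma adjusted p = 0.860). The largest such difference was that of fabp7a, described below.

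**Figure D4:**
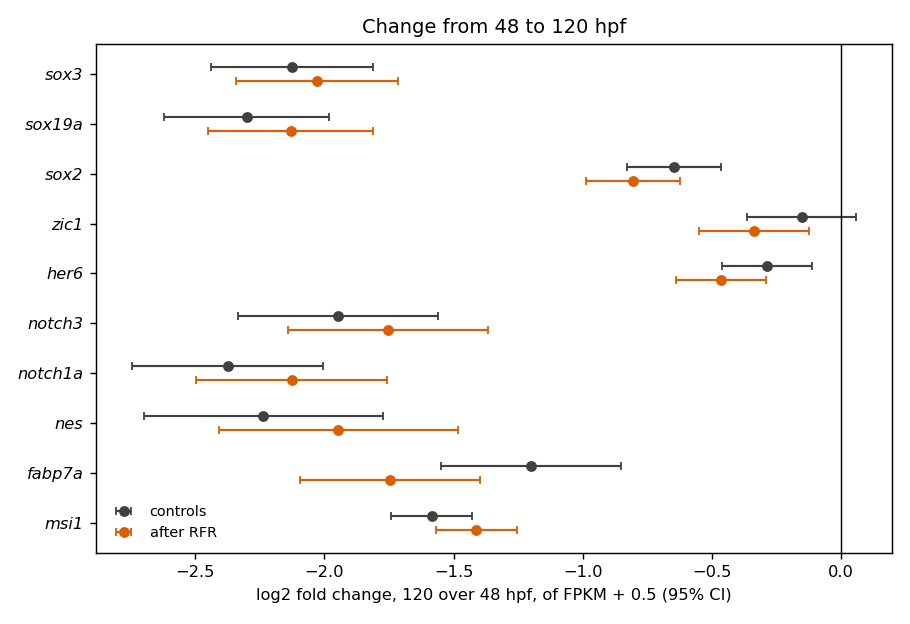
Log2 fold change of FPKM + 0.5 from 48 to 120 hpf (horizontal axis) for each progenitor gene, with 95% confidence intervals from limma, in controls and after RFR (4 libraries per stage in each). All intervals lie below 0 except that of zic1 in controls, and those of her6, zic1 and sox2 lie nearest to 0.

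At 48 hpf, the end of the exposure, none of the 10 progenitor genes passed the test between RFR and control embryos. limma called 0 of 10, where it called 1 of all genes, or 0.00434%. An unadjusted p under 0.05 was reached by 0 of 10 members and by 9.47% of all genes. The RFR and control libraries overlapped for all 10 genes, while 1.27% of all genes had all RFR libraries lower and 3% all higher. The fold changes were negative for 6 members and positive for 4, with a median of -0.17 against 0.043 for all genes, and 95% confidence intervals of all 10 included 0. For the median gene such an interval reached 0.306 log2 units to either side.

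The RFR libraries did not move as a group of 4. Replicate 1 sat with or above the controls, and replicates 2 to 4 mostly at or below them. sox3 was at 106, 77.2, 59.8 and 63.1 FPKM in RFR replicates 1 to 4, so that replicate 1 exceeded all controls and replicates 3 and 4 were below all of them (log2 fold change -0.21 ± 0.148, limma adjusted p = 0.733). sox19a was at 65.7, 46.8, 39.0 and 41.3 FPKM, with 3 of 4 values under the lowest control of 49.4 (-0.28 ± 0.150, limma adjusted p = 0.606). sox2, at 43.8, 44.1, 37.2 and 41.6 FPKM, had a fold change of the other sign, with replicates 1 and 2 above all controls (0.10 ± 0.086, limma adjusted p = 0.789). The ratio of sox3 to sox2 was accordingly 2.42 in RFR replicate 1, above the control range, and 1.75, 1.61 and 1.52 in replicates 2 to 4, below it. The ratio of sox19a to sox2 was 1.5 in replicate 1, inside the control range, and 1.06, 1.05 and 0.993 in the others, below it.

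notch1a was at 37.0, 24.6, 18 and 25.8 FPKM in RFR replicates 1 to 4 at 48 hpf. The last 3 values were below the lowest control of 28.4, and the log2 fold change was -0.35, with a 95% confidence interval from -0.72 to 0.015 (limma adjusted p = 0.546). notch3 was at 49.1, 30.0, 29.7 and 26.3 FPKM, with replicate 1 above all controls and replicate 4 below all (-0.21 ± 0.182, limma adjusted p = 0.797). her6 was at 39.1, 31.7, 37.1 and 38.0 FPKM, around the control values (0.026 ± 0.082, limma adjusted p = 0.966). Its fold change turned to -0.035 after median-ratio scaling. zic1, at 34.8, 32.6, 28.8 and 30.7 FPKM, lay inside the control range in all 4 libraries (0.086 ± 0.0998, limma adjusted p = 0.870).

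nes had the lowest fold change of the 10 genes. Its RFR values were 19.7, 12.6, 10.4 and 10.6 FPKM, with replicate 1 among the controls and the other 3 below the lowest control of 14.7 (-0.42, 95% confidence interval -0.88 to 0.041, limma adjusted p = 0.579). The other radial glia gene, fabp7a, had the highest fold change. It was at 585, 707, 497 and 736 FPKM, with replicates 2 and 4 above all controls (0.29, 95% confidence interval -0.054 to 0.64, limma adjusted p = 0.616). msi1 was at 29.2, 25.7, 26.1 and 27.1 FPKM, 3 of 4 under the lowest control of 27.8 (-0.13 ± 0.074, limma adjusted p = 0.612). The ratio of msi1 to msi2b was 3.76 in RFR replicate 1, inside the control range, and 2.63, 2.32 and 2.88 in the others, below it.

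The same libraries stood apart for gene after gene. Among the 8 libraries of this stage, control replicate 2 was in the top 3 for 9 members and RFR replicate 1 also for 9, while RFR replicate 3 was in the bottom 3 for 9. Without RFR replicate 1, limma called 389 genes, or 1.69% of those tested (350 or 1.52% higher, 39 or 0.169% lower), and still 0 of the 10 members. An unadjusted p under 0.05 was then reached by 6 members and by 13.7% of all genes, and the median fold change over all 10 members was -0.27. RFR replicate 1 was singled out here by high values of these same members. Leaving it out therefore lowers most of their fold changes by construction, and these member values are a description and no test. The values without that library were -0.62 for nes (limma adjusted p = 0.141), -0.53 for notch1a (0.0923), -0.43 for sox19a (0.102), -0.41 for notch3 (0.229), -0.38 for sox3 (0.131) and -0.17 for msi1 (0.344). The other 4 members were at 0.32 for fabp7a (limma adjusted p = 0.489), 0.079 for sox2 (0.819), 0.040 for zic1 (0.940) and -0.0090 for her6 (0.989). The median moved toward 0 without control replicate 2 (-0.107) or without RFR replicate 3 (-0.110). What sets these libraries apart was not tested.

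**Figure D5:**
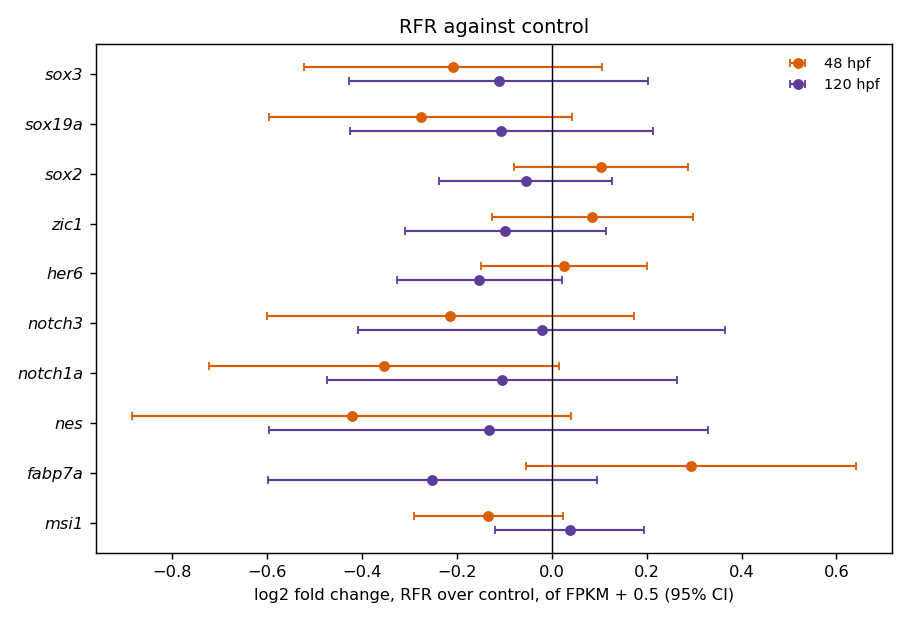
Log2 fold change of FPKM + 0.5 between RFR and control libraries (horizontal axis, 4 against 4) for each progenitor gene at 48 and at 120 hpf, with 95% confidence intervals from limma. All intervals include 0, and the widest at 48 hpf is that of nes, from -0.88 to 0.041.

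Summed levels of markers of dividing cells and of neurons also differed among the 48 hpf libraries. The summed level of 17 proliferation genes was 1198 to 1307 FPKM in controls. In RFR replicates 1 to 4 it was 1190, 1010, 866 and 1110 FPKM. The groups did not overlap, but RFR replicate 1 (1190) lay close to the lowest control (1198). A negative fold change was seen for 15 of the 17 (median -0.27, against 0.043 for all genes). The genes differed in size of change. The most abundant, rrm2 and pcna, which weigh most in the sum, were at -0.39 and -0.32. mki67 was at -0.019, and the 2 with a positive fold change, top2a and cdk1, at 0.046 and 0.031. The sum of 17 neuron markers was 738 to 876 FPKM in controls. In RFR replicates 1 to 4 it was 848, 1014, 1011 and 989 FPKM. Here the groups overlapped, with RFR replicate 1 below the highest control. The fold change was positive for all 17 (median 0.29, against 0.043 for all genes). The genes of a list were measured in the same libraries, so equal signs within it are not separate results. RFR replicate 1, which was highest in sox3, notch3 and her6, also had the highest proliferation sum and the lowest neuron sum of its group. No marker of either list was at 0. The sum of radial glia markers also overlapped (612 to 696 FPKM in controls, 653 to 677 in RFR), as did those of muscle and of vessels. None of the 135 listed genes passed the test in this comparison. Among the listed relatives of the members, dla and dlb were at 32.0 ± 9.22 and 43.1 ± 12.5 FPKM in RFR embryos (log2 fold changes -0.39 and -0.35, limma adjusted p = 0.426 and 0.462) and lfng at 45.8 ± 11.3 (-0.25, 0.575), while sox14 was at 23.0 ± 3.26 FPKM (0.49, 0.250). Other relatives had fold changes of 0.23 (sox1a), 0.068 (her9) and -0.13 (hes6). Without RFR replicate 1 limma called 18 of the listed genes, 7 lower and 11 higher. It then called 1.69% of all genes, 0.169% lower and 1.52% higher. No listed gene was called in this comparison under any other setting, so these calls depend on leaving out that library. RFR replicate 1 was singled out by the members' values and stood at the end of its group in both sums. The 18 calls are therefore a description and no test. The 7 lower ones were dla, dlb, dld, lfng, the proneural genes ascl1a and atoh1a and the radial glia gene slc1a3a. The 11 higher ones were sox14, the proneural gene atoh1c, the radial glia gene slc1a2b and 8 of the 17 neuron markers. The proneural and radial glia lists were thus called in both directions. In the proneural list the higher call was atoh1c alone, a gene at 0 in control 48 hpf replicate 2. Whether the members' values follow from the share of dividing cells and neurons was not tested.

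At 120 hpf, after the exposure had ended, limma again called 0 of the 10 progenitor genes between RFR and control embryos, and 0 had an unadjusted p under 0.05. It called 0 genes in all (0%), with 952, or 4.13%, at an unadjusted p under 0.05. The groups overlapped for all 10 genes, while 1.22% of all genes had every RFR library lower and 0.886% every RFR library higher. The fold changes were negative for 9 members and positive for msi1 (0.037), with a median of -0.11 against -0.0035 for all genes. The median was -0.065 without control replicate 2 and -0.052 without RFR replicate 3.

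her6 and fabp7a had the lowest limma p of the 10 genes at this stage. her6 was at 28.4, 23.99, 25.7 and 26.8 FPKM in RFR replicates 1 to 4, with 3 of 4 values under the lowest control of 27.2. Its log2 fold change was -0.15, with a 95% confidence interval from -0.33 to 0.021 (limma adjusted p of 1). fabp7a was at 196, 147, 205 and 201 FPKM, with replicate 2 alone below the lowest control of 185 and all 4 below the other controls (-0.25, 95% confidence interval -0.60 to 0.096, limma adjusted p of 1). The SoxB1 genes lay close to the controls: sox3 at 18.7, 15.7, 18.8 and 18.5 FPKM, with only replicate 2 below the control range. sox19a was at 11.9, 9.83, 8.80 and 11.3 FPKM and sox2 at 25.7, 23.3, 20.5 and 25.2, each with only replicate 3 below the controls. The log2 fold changes of these 3 genes were -0.11, -0.11 and -0.055.

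The remaining members also overlapped between the groups at 120 hpf. notch1a was at 5.44, 5.32, 5.08 and 6.04 FPKM and notch3 at 9.69, 9.77, 9.24 and 8.79, with log2 fold changes of -0.11 and -0.022. nes was at 4.64, 2.50, 2.70 and 2.44 FPKM (-0.13). Replicate 1 was the highest, as in the controls, and the other 3 were below the lowest control of 2.73 FPKM. zic1 was at 25.86, 24.99, 21.5 and 27.9 FPKM (-0.098), 3 of 4 under the lowest control of 25.88 FPKM, and msi1 was at 10.6, 9.24, 9.83 and 9.67. Every 95% confidence interval included 0, and the widest, that of nes, ran from -0.60 to 0.33. All 17 proliferation genes, measured in the same libraries, had negative fold changes (median -0.19, against -0.0035 for all genes). Their sums were 256 to 374 FPKM in controls and 305, 190, 345 and 285 in RFR replicates 1 to 4. The groups overlapped, and only RFR replicate 2 lay below the control range. The sum of the 9 vascular and mural markers was 287.9 to 316.7 FPKM in controls and 276.4 to 286.6 in RFR. These ranges did not overlap but nearly met. The most abundant of the 9, acta2 and tagln, had fold changes of -0.17 and -0.070, while 6 of the 9 genes had a positive one. None of the 9 passed the test. The part of either list in the members' values, notch3 included, was not tested.

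The difference between the RFR effects at the 2 stages passed for none of the 10 genes, and limma called 0 of all genes (0%). There was 1 member with an unadjusted p under 0.05, as had 6.84% of all genes. fabp7a, higher by 0.29 in RFR embryos at 48 hpf and lower by 0.25 at 120 hpf on the log2 scale (values that did not pass on their own), had a difference of -0.55 ± 0.232, with a 95% confidence interval from -1.04 to -0.054 and a limma adjusted p of 0.673. Its drop in mean FPKM from 48 to 120 hpf was 2.34-fold in controls and 3.37-fold after RFR. For the other 9 members the interval of the difference included 0.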

How the data were processed

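The authors deposited 1 table of FPKM values, with 2 decimals, per the file headers, for all 16 libraries. They also deposited summaries per library with counts of reads after filtering and of genes detected, raw reads (in M), and the percent of mapped, rRNA and high-quality reads, per the file headers. The tools HISAT2, Bowtie2 and DESeq2 and the genome build GRCz11 appear in the submitters' processing notes, without versions or roles; which of them made the FPKM is not stated there. Since FPKM are normalized, no count test was run, and intervals cover only the spread among libraries.

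Values were tested as log2(FPKM + 0.5), which understates changes of low genes, with limma 3.58.1 in R 4.3.3 (mean-variance trend). Tested were 23026 genes, those with 4 or more libraries at or above 0.5 FPKM. A single fit of the 4 group means with 12 residual degrees of freedom gave all comparisons. Two-sided p-values were adjusted by Benjamini-Hochberg over all genes tested, with a threshold of 0.05. The script was tested on simulated data. Summed levels add FPKM over a list.

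The members and lists were chosen with earlier results of these data known. The 12 lists had 137 entries: 132 matched by the table's symbol, 3 by gene ID, and 2 fell on a gene already held, which left 135. The table has 6349 entries without a symbol. All members are named, and from each list the 2 genes with the highest mean FPKM and any called between RFR and control. A gene that this rule names is not reported here. zic4, fabp7b, msi1a, jag2a, adam10a, atoh1c, dld, ascl1a, atoh1a and slc1a3a lie outside this rule, as do sox9b, pax6a, pax6b, mki67, top2a and cdk1. All of these were chosen after their values were seen. Gene names and neighbours outside the table come from RefSeq (assembly GRCz12tu). No sequences are shown. Raw reads were 47.48 M in every replicate 1 to 3 but not in replicate 4, which was therefore also left out or fitted as a batch. Other settings were pseudocounts of 0.1 and 1, no filter or one at 1 FPKM, quantile and median-ratio scaling, only the groups compared, a replicate block, library weights and leaving out each library.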

Additional observations from a re-analysis of the deposited data

Results flagged for a closer look

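Of the 40 sets of 4 values (10 members in 4 groups), 4 had a library whose gap to its nearest neighbour was large for the range of the set, by Dixon's test. Chance gives about 1 in 20. In RFR 120 hpf replicate 2, sox3 (15.73 FPKM) and fabp7a (146.56 FPKM) were apart below the other 3 libraries. nes was apart above them in RFR 120 hpf replicate 1, at 4.64 FPKM; control 120 hpf replicate 1 was likewise the highest of its group, at 4.72 FPKM. notch3 was apart above its group in RFR 48 hpf replicate 1, at 49.12 FPKM.

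The same test set apart the rRNA share of control 120 hpf replicate 1 (3.2%) and of RFR 120 hpf replicate 4 (0.24%). It also set apart the reads after filtering of RFR 48 hpf replicate 4 (39603976, the lowest of its group) and of control 120 hpf replicate 4 (49232542, the highest).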

How the results depend on the processing

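In the RFR comparisons and in the difference between stages, limma called 0 of the 10 members under all settings tried. In control development it called 9, or 8 with replicates 1 to 3 only and 10 after median-ratio scaling or without control 48 hpf replicate 1; after RFR it called 10 under all settings. The number of all genes called at 48 hpf, 1 as reported, was 3 with a pseudocount of 0.1, 2 without a filter, 0 with a filter of 1 FPKM, 0 with only the groups compared, 8 with library weights, and 1 to 389 when single libraries were left out. At 120 hpf it was 4 without a filter and 1 with the replicate block. For the difference between stages it was 1 with a pseudocount of 0.1, 1 after quantile normalization, 1 with replicates 1 to 3 only, and 0 to 1 without single libraries. Listed genes called at 48 hpf numbered 0 to 18 without single libraries. The 18 and the 389 came without RFR replicate 1. Fold changes near 0 changed sign. At 48 hpf her6 was at -0.035 after median-ratio scaling, -0.013 with library weights and -0.0090 to 0.091 without single libraries, where zic1 ranged from -0.00071 to 0.16. Without single libraries at 120 hpf sox2 ranged from -0.095 to 0.011, nes from -0.32 to 0.019 and notch3 from -0.12 to 0.057, and the difference between stages for sox3 from -0.0099 to 0.26. The cause of these shifts was not tested. Under the replicate block the members called were unchanged in number: 0, 0, 9, 10 and 0 for RFR at 48 and 120 hpf, development in controls and after RFR, and the difference. The labels do not say that a number marks a shared clutch or batch, and 9 of 24 same-numbered pairs of libraries correlated above 0.1 in their deviations (r from -0.19 to 0.31), with 7 of 16 libraries closest to their own number. These 9 were all 6 pairs of replicate 4 (r from 0.16 to 0.31) and 3 of 18 pairs of the other numbers. With replicate 4 as a batch term the members called were again 0, 0, 9, 10 and 0. With 4 libraries per group, the median half-width of a 95% interval was 0.306 on the log2 scale, or 0.433 for the difference between stages. Numbers of embryos per library are not given, so spread between clutches may not be covered.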
